A study of Sus scrofa with 6 samples.

Results

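The 8 genes of creatine synthesis, transport and kinase activity were followed in renal medulla of 6 adult female Large White-Landrace crossbred pigs. The 3 Sham pigs had 2.5 hours of general anaesthesia with neck dissection, and the 3 CPB pigs had 2.5 hours of cardiopulmonary bypass through the same approach under anaesthesia. Both groups received heparin, and the kidneys were sampled 24 hours later. Each pig contributed 1 Affymetrix porcine array (n = 3 animals per group). A gene was measured by every probe set whose annotation gave its symbol and no other. This gave 6 probe sets of the 23999 on the array that are not controls, 1 each for GAMT, SLC6A8, CKB, CKM, CKMT1A and CKMT2. GATM and CKMT1B, which pig RefSeq (Sscrofa11.1) lists as a synonym of CKMT1A, had no probe set by this rule and are not analysed here. The array values name no genome build, so positions are not given. Values are intensities on the linear scale after the authors' RMA normalisation, and the median of an array lay between 94.62 and 96.93. Differences are mean log2 intensity in CPB minus Sham, with the standard error (SE) from limma, which pools information about variance across the array. CKMT2 had been picked by the study on these arrays, and the other genes were gathered with the same contrast known. The comparison of CPB with Sham is therefore given here as a description and not as a test of these genes. For CKMT2 the study also reported an increase in CPB by real-time PCR and, as protein, by Western blotting, which were not re-examined here.

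Creatine carries high-energy phosphate between mitochondria and the sites where ATP is used. GATM joins arginine and glycine to guanidinoacetate, a step for which the kidney, and its proximal tubule in particular, is well known, and GAMT methylates guanidinoacetate to creatine. SLC6A8 brings creatine into cells with sodium and chloride. The creatine kinases CKB and CKM work in the cytosol, CKMT1A, CKMT1B and CKMT2 between the mitochondrial membranes, and all of them move phosphate between ATP and creatine.

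The arrays differed in their level of proximal tubule transcripts. LRP2, which encodes megalin, the endocytic receptor of that segment, had an intensity of 180.8, 2389.6 and 898.5 in Sham 1, 2 and 3 and of 2468.8, 169.2 and 2740.2 in CPB 1, 2 and 3. Its other probe set gave the same order within each group. The 16 of 25 listed proximal tubule markers that were measured had a summed intensity of 9164 to 48187 in Sham and of 9910 to 54123 in CPB. For 15 of the 16 the 3 highest arrays were those of LRP2. The exception, AQP1, varied only 1.41-fold and weighs on the lowest sums, at 5515.4 in Sham 1 and 4465.4 in CPB 2. All 16 had a higher mean in CPB, where 2 of the 3 arrays were rich in them, and their median log2 difference was 0.85. LRP2 itself differed by 0.52 (SE 1.39), from -0.49 without Sham 1 to 1.83 without CPB 2. The median was -0.62 for the 5 urothelium markers measured, of which 4 had a lower mean in CPB. It was -0.23 for both the 10 smooth muscle and the 10 endothelial markers measured, of which 7 and 5 had a lower mean in CPB. The groups overlapped for every marker of these lists. The part of these cell types in the differences below was not tested beyond the fits with a proximal tubule covariate. Sham 2, CPB 1 and CPB 3 were thus rich in proximal tubule transcripts, Sham 1 and CPB 2 were poor in them, and Sham 3 lay between. With bulk tissue, fewer cells of a type and less RNA per cell cannot be told apart. AQP3, a water channel of the collecting duct, was present on all arrays, at 1048 to 5437, while AQP2 and UMOD, further defining genes of medullary tubules, had no probe set by the same rule. Since LRP2 fell into separate groups of arrays, no correlation coefficient with it is given.

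GAMT, the enzyme of the last step of creatine synthesis, had an intensity of 185, 224 and 166.3 in Sham 1, 2 and 3 and of 271.7, 171.9 and 436.9 in CPB 1, 2 and 3. CPB 3 and CPB 1 were the highest arrays, while CPB 2 lay inside the Sham range. The log2 difference was 0.52 (SE 0.35, 95% confidence interval -0.32 to 1.37). It was 0.18 without CPB 3 and 0.86 without CPB 2, where it met the study's threshold, as did 693 of all probe sets.

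SLC6A8, the creatine transporter, had an intensity of 273.6, 659.4 and 249.3 in the Sham arrays and of 663.4, 428.3 and 666.6 in the CPB arrays. The arrays rich in proximal tubule transcripts, Sham 2, CPB 1 and CPB 3, lay within a few units of each other and above all others. Among the others, CPB 2 was higher than Sham 1 and Sham 3. The groups overlapped, and the log2 difference was 0.69 (SE 0.41, 95% confidence interval -0.32 to 1.70). It ran from 0.44 without Sham 3 to 1.14 without Sham 2. It met the study's threshold in the latter fit, as did 701 of all probe sets, and in none of the 5 others.

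CKB, the brain-type cytosolic kinase, which is found in many epithelia and in smooth muscle, had an intensity of 1079.9, 895.5 and 466.6 in the Sham arrays and of 902.5, 1305.7 and 1013.3 in the CPB arrays. Sham 3 was the lowest array, and CPB 2 and Sham 1, both poor in LRP2, were the highest. The log2 difference was 0.47 (SE 0.34, 95% confidence interval -0.36 to 1.29), and it was 0.11 without Sham 3. The groups overlapped. The 3 of 11 thick ascending limb markers that were measured, KCNJ1, CLDN10 and EGF, also had their lowest sum in Sham 3, at 2961 against 4539 to 5849 on the other arrays. The 5 of 14 urothelium markers measured had their highest sum there, at 3146. Their part in the CKB values was not tested.

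CKM, the muscle-type cytosolic kinase, was the only one of the 6 genes with a lower mean in CPB. It had an intensity of 166.3, 64.1 and 69.1 in the Sham arrays and of 60.1, 113.2 and 48.4 in the CPB arrays. Sham 1 and CPB 2, poor in LRP2, were the highest arrays, and the groups overlapped. The log2 difference was -0.39 (SE 0.48, 95% confidence interval -1.55 to 0.78), and without Sham 1 it was 0.053.

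The order of CKM over the arrays was the reverse of that of LRP2 within both groups, which was true of 9.14% of all probe sets. The mean centred log2 level of the 10 of 12 smooth muscle markers measured was 0.49 in Sham 1, 0.45 in CPB 2, 0.19 in Sham 3, -0.31 in Sham 2, -0.40 in CPB 1 and -0.42 in CPB 3, which is the order of CKM over all 6 arrays. The 10 of 12 endothelial markers followed the same order, from 0.48 in Sham 1 to -0.50 in CPB 3. CKM is best known from striated muscle, for which 13 of 18 listed markers were measured. Their mean centred log2 level was lowest in Sham 1, at -0.35, where CKM was highest, and highest in Sham 2, at 0.29. It was 0.035 in CPB 2, where CKM was next highest. ACTC1, the cardiac actin, went from 12.4 in Sham 1 to 418.1 in Sham 2, so this marker alone weighs on both levels. The part of these cells in the CKM values was not tested.

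CKMT1A, the ubiquitous mitochondrial kinase, varied least between animals. Its intensity was 124.4, 144.6 and 133.1 in the Sham arrays and 128.3, 143.6 and 145.7 in the CPB arrays, so the groups overlapped and the highest array was 1.17 times the lowest. The same ratio lay between 2.63 and 3.43 for the 5 other genes. The log2 difference was 0.055 (SE 0.12, 95% confidence interval -0.23 to 0.34).

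CKMT2, the sarcomeric mitochondrial kinase known from heart and skeletal muscle, had an intensity of 27, 34.2 and 21.8 in the Sham arrays and of 68.2, 33.5 and 69.4 in the CPB arrays. CPB 1 and CPB 3 lay well above every Sham array, and CPB 2 lay inside the Sham range, just under Sham 2. The log2 difference was 0.99 (SE 0.33, 95% confidence interval 0.18 to 1.81), which is 1.99-fold. Its mean level was low, above that of 25.3% of the probe sets. Of the 13 striated muscle markers measured, 12 had a higher mean in CPB, against 55.9% of all probe sets. The 3 brightest, TNNC1, PYGM and MYL3, differed by -0.0014 (SE 0.16), 0.052 (SE 0.12) and 0.19 (SE 0.14). ACTC1 ranged from 12.4 in Sham 1 to 418.1 in Sham 2. None of the 13 met the study's threshold, which 0.304% of all probe sets met, and their median log2 difference was 0.15. The part of muscle cells in the CKMT2 values was not tested.

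**Figure D1:**
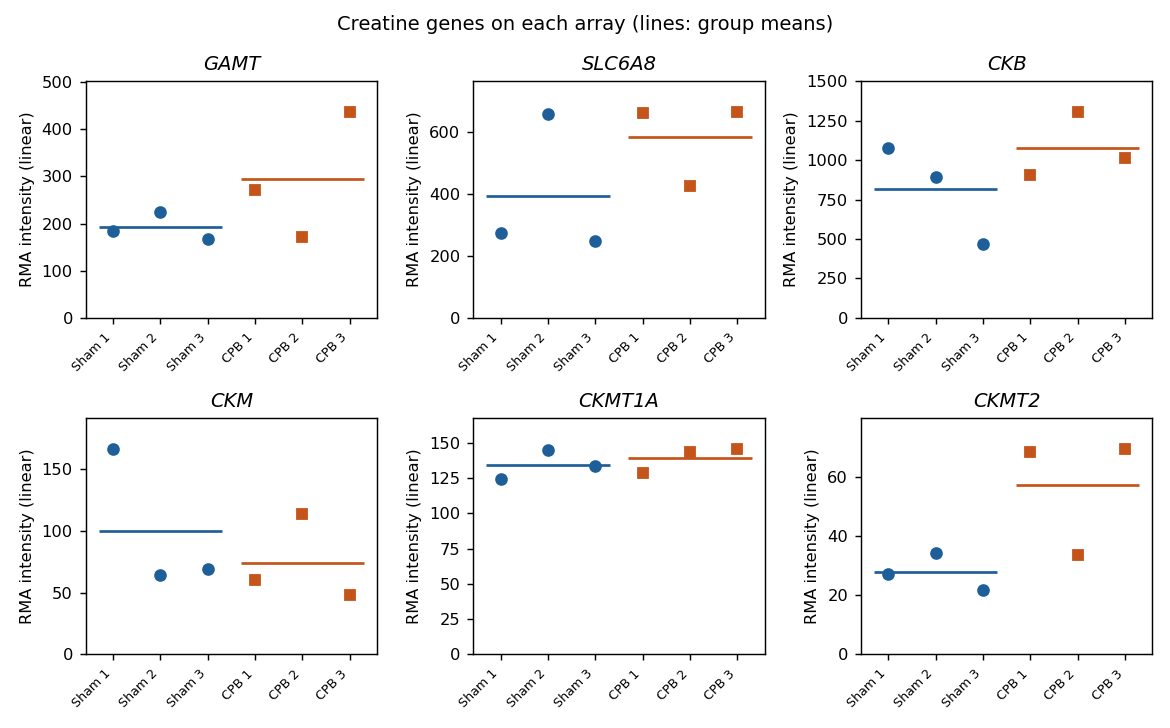
RMA intensity on the linear scale of the 6 measured genes on each array, with Sham animals as circles, CPB animals as squares and group means as lines. The 2 groups overlap in every panel. CPB 2 lies among the Sham arrays for GAMT, SLC6A8 and CKMT2, and CKMT1A stays between 124.4 and 145.7.

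The study called a probe set at an unadjusted p below 0.05 together with at least 1.6-fold. By this threshold 1 of the 6 probe sets was called, CKMT2, higher in CPB. The threshold was met by 0.304% of all probe sets, and by 0.0875% in the direction of higher in CPB. Since the study chose CKMT2 by this contrast, nothing is read from that count. Of the 6 genes 5 had a higher mean in CPB, against 55.9% of all probe sets. The median log2 difference was 0.49 over the 6 genes and 0.027 over all probe sets. It was below the 0.85 of the proximal tubule markers. The CPB arrays were separate from the Sham arrays for 0 of the 6 genes, against 5.27% of all probe sets. Limma's adjusted p was 0.995 for each gene, and no probe set on the array passed an adjusted p of 0.05, with 336 at an unadjusted p under 0.05. With the methods' t-test 0 of the 6 genes and 499 of all probe sets had an unadjusted p under 0.05.

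The 3 highest arrays were those of LRP2, Sham 2, CPB 1 and CPB 3, for GAMT, SLC6A8 and CKMT2, which is 3 of the 6 genes against 21.3% of all probe sets. For CKM the same arrays were the 3 lowest, as for 16.3% of all probe sets. CKB and CKMT1A had neither pattern. Within the CPB group, GAMT, SLC6A8 and CKMT2 followed the order of LRP2, as did 28.7% of all probe sets. Within the Sham group none of these 3 genes did, and CKMT1A alone followed it, as did 24.8% of all probe sets. Thus 0 of the 6 genes followed LRP2 in both groups, against 11.5% of all probe sets. In the fit with LRP2 as a covariate, described below, a doubling of LRP2 went with a log2 change of 0.18 in GAMT, 0.22 in SLC6A8 and 0.18 in CKMT2, of -0.32 in CKM, of -0.11 in CKB and of 0.013 in CKMT1A. The lowest array was Sham 3 for GAMT, SLC6A8, CKB and CKMT2, which is 4 of 6 genes against 21.9% of all probe sets. The highest array was CPB 3 for GAMT, SLC6A8, CKMT1A and CKMT2, against 23.8% of all probe sets.

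Arrays of similar LRP2 can be read side by side. Among the arrays rich in LRP2, CKMT2 was at 34.2 in Sham 2 and at 68.2 and 69.4 in CPB 1 and CPB 3. SLC6A8 was at 659.4 in Sham 2 and at 663.4 and 666.6 in the same CPB arrays. GAMT was at 224 in Sham 2 and at 271.7 and 436.9 in them. Among these 3 arrays CKMT2 and GAMT were higher in the CPB animals, and SLC6A8 was level. Among the arrays poor in LRP2, SLC6A8 was at 273.6 in Sham 1 and at 428.3 in CPB 2, and CKMT2 at 27 and 33.5. GAMT was at 185 and 171.9, CKB at 1079.9 and 1305.7, and CKM at 166.3 and 113.2 in the same arrays. With 1 or 2 arrays on each side these pairs have no error and were not tested.

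**Figure D2:**
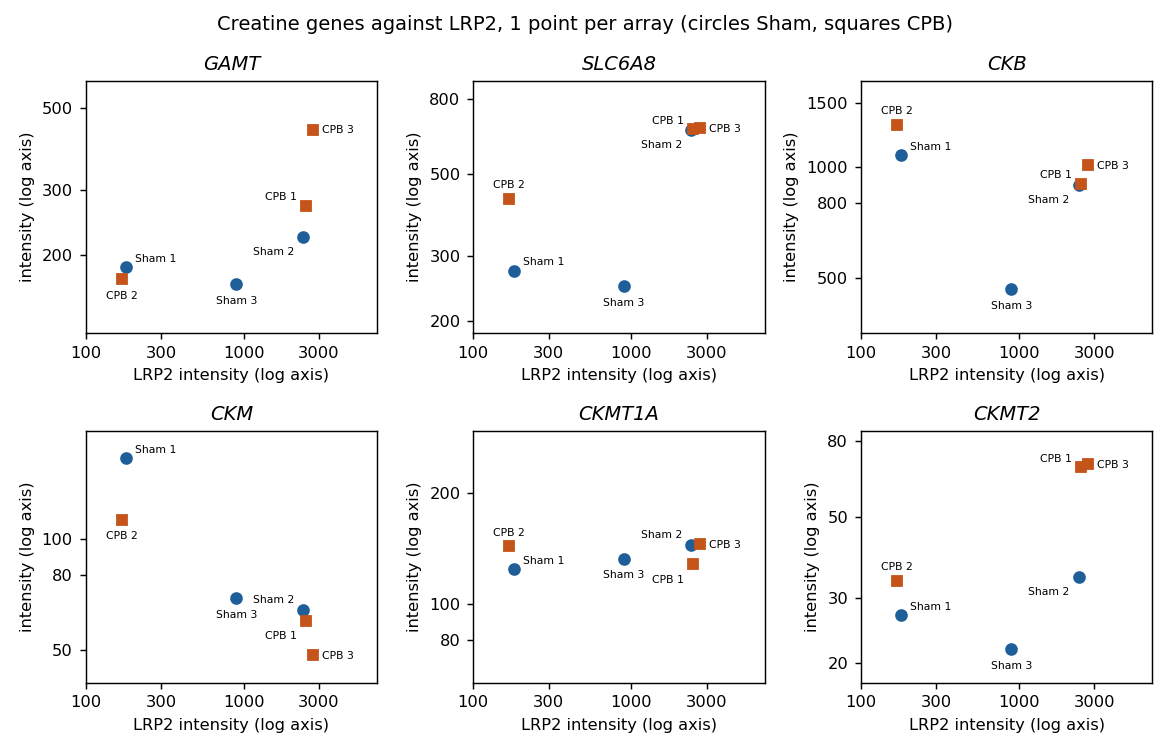
Intensity of each gene against that of LRP2, both on log axes, with 1 point per array (circles Sham, squares CPB). SLC6A8 is at 659.4 to 666.6 on the 3 arrays rich in LRP2, CKM falls from 166.3 in Sham 1 to 48.4 in CPB 3, and CKMT2 is at 34.2 in Sham 2 but at 68.2 and 69.4 in CPB 1 and CPB 3.

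The comparison was also fitted with log2 LRP2 as a covariate, which gives the difference between the groups at equal LRP2 and leaves 3 residual degrees of freedom. CKMT2 was higher in CPB by a log2 difference of 0.90 (SE 0.22, 95% confidence interval 0.36 to 1.43), close to the 0.99 without the covariate. It was the only one of the 6 genes at the study's threshold in this fit, in which 0.692% of all probe sets were called, and its adjusted p from limma was 0.959. SLC6A8 differed by 0.58 (SE 0.29), GAMT by 0.43 (SE 0.25) and CKB by 0.53 (SE 0.31), each with a 95% confidence interval that held 0. CKM differed by -0.22 (SE 0.18) and CKMT1A by 0.048 (SE 0.12). The median over the 6 genes was 0.48, against 0.025 over all probe sets. With the mean of all 16 proximal tubule markers in place of LRP2, CKMT2 differed by 0.82 (SE 0.24) and was again the 1 gene of the 6 at the threshold, which 0.421% of all probe sets met in that fit, while CKM differed by -0.075 (SE 0.19).

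**Figure D3:**
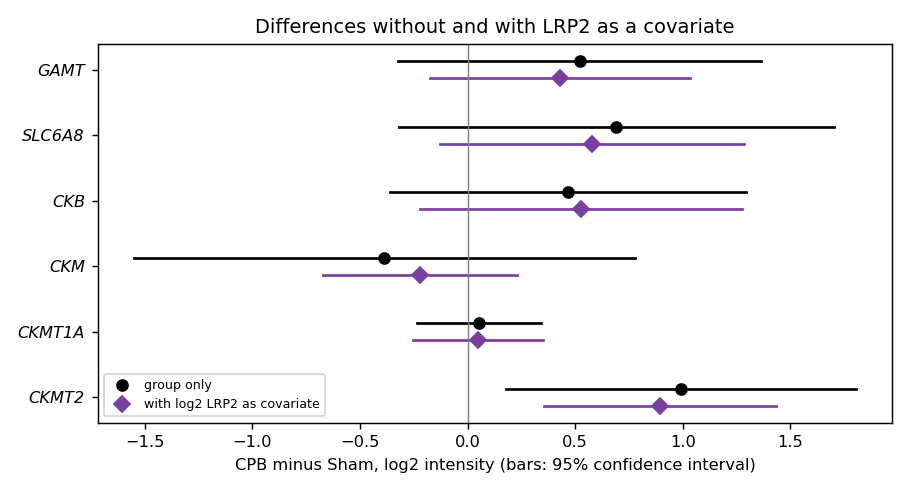
Log2 difference, CPB minus Sham, of each gene with its 95% confidence interval, from the fit with the group alone (circles) and with log2 LRP2 as a covariate (diamonds). CKMT2 is at 0.99 and 0.90 with both intervals above 0, and the intervals of the other 5 genes hold 0 in both fits.

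Single animals moved these differences. With each array left out in turn, CKMT2 differed by 0.81 to 1.34 and met the study's threshold in 2 of 6 fits, those without Sham 2 and without CPB 2. It missed the threshold without Sham 1, Sham 3, CPB 1 or CPB 3. At equal LRP2 it met the threshold in 6 of 6 such fits, by 0.70 without Sham 3 to 1.21 without CPB 2. The share of all probe sets called in those covariate fits was not determined, so nothing is read from that count. With no covariate, 701 of all probe sets met the threshold without Sham 2 and 693 without CPB 2, against 73 with all 6 arrays. Without Sham 2, SLC6A8 (0.98) and CKB (0.85) also met the threshold at equal LRP2, and without Sham 3 they were at 0.28 and 0.17. In the fit without Sham 2, LRP2 reached 898.5 in Sham and 2740.2 in CPB, so its adjustment extends beyond the Sham arrays. In the fit without CPB 2, the CPB arrays were at 2468.8 and 2740.2 of LRP2, and no Sham array exceeded 2389.6. The groups did not overlap in LRP2 there, so values such as the 1.21 of CKMT2 also rest on an adjustment beyond the arrays. GAMT at equal LRP2 ran from 0.20 without CPB 3 to 0.73 without CPB 2, CKM from -0.37 without Sham 3 to -0.029 without CPB 2, and CKMT1A from -0.076 without CPB 2 to 0.12 without Sham 2. With the group alone, GAMT, SLC6A8, CKB and CKMT1A kept a higher mean in CPB in all 6 fits. CKM was lower in CPB in 5 of them. Without Sham 2 and CPB 2 together, GAMT (0.97), SLC6A8 (1.35) and CKMT2 (1.503) met the threshold, and SLC6A8 and CKMT2 had adjusted p-values of 0.0345 and 0.0353 from limma. That fit sets the Sham arrays at 180.8 and 898.5 of LRP2 against the CPB arrays at 2468.8 and 2740.2, so the groups and LRP2 cannot be told apart in it. Of all probe sets 12.8% met the threshold in that fit and 5.65% did so as higher in CPB, and 719 passed an adjusted p of 0.05, which is 3% (1.32% as higher in CPB).

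**Figure D4:**
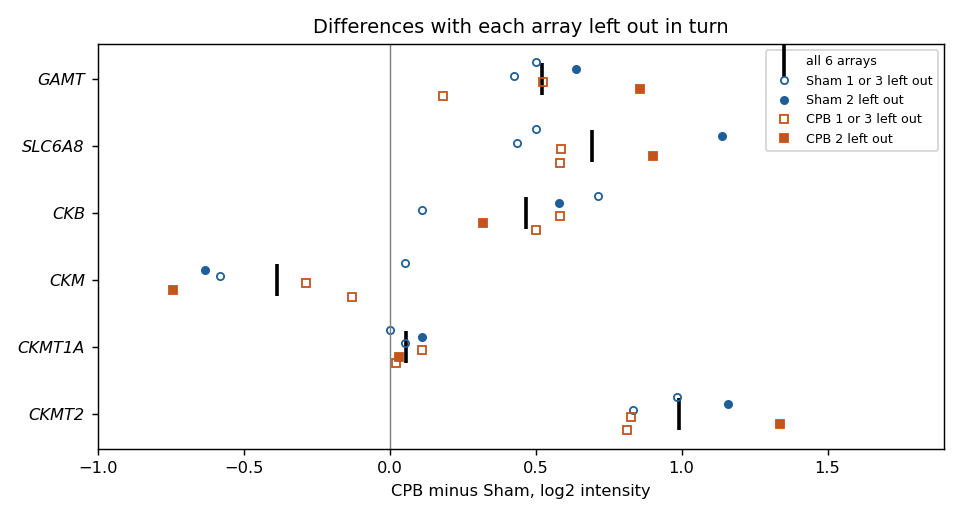
Log2 difference, CPB minus Sham, of each gene with all 6 arrays (bar) and with 1 array left out (circles for Sham, squares for CPB, filled where replicate 2 is left out). CKMT2 stays between 0.81 and 1.34, and CKM crosses 0 when Sham 1 is left out.

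Around these genes, 6 lists of neighbours in metabolism were described, with 1 probe set per gene. Of their 92 genes 58 were measured, and in 42 of these the CPB mean was the higher, against 55.9% of all probe sets. Their median log2 difference was 0.15. None of the 58 met the study's threshold and 0 had an unadjusted p under 0.05 from limma, against 0.304% and 1.4% of all probe sets. For 4 of the 58 the groups did not overlap, against the 5.27% over the array.

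Genes that make, use or carry arginine and glycine, the substrates of GATM, lay mostly higher in CPB. Of the 11 measured, 10 had a higher mean, against 55.9% of all probe sets, and the median was 0.55. ASL, which releases arginine from argininosuccinate, was at 177.3, 850.5 and 249.8 in the Sham arrays and at 1087.1, 248.3 and 1747.1 in the CPB arrays, a difference of 1.22 (SE 0.89). For 8 of the 11 genes the 3 highest arrays were those of LRP2. AMT, of the glycine cleavage system, differed by 0.74 (SE 0.36), SHMT1, which interconverts serine and glycine, by 0.54 (SE 0.40), and SLC7A7, a carrier of basic amino acids, by 0.59 (SE 0.50). At equal LRP2, ASL differed by 0.90 (SE 0.31). ASS1, which makes argininosuccinate and was named after its values were seen, differed by 0.71 (SE 0.23). Both met the threshold in that fit, as did 0.692% of all probe sets, and limma's adjusted p was 0.959 for both. With the mean of the proximal tubule markers as the covariate the differences were 0.62 (SE 0.31) and 0.37 (SE 0.22), and neither met it. With 1 array left out and no covariate, ASL ran from 0.63 without CPB 3 to 2.04 without CPB 2, AMT from 0.34 to 1.05 and SLC7A7 from 0.24 to 1.04 in the same fits, and SHMT1 from 0.31 without Sham 1 to 0.95 without Sham 2. ASL and AMT met the threshold without CPB 2, as did 693 of all probe sets. SHMT1 met it without Sham 2, as did 701 of all probe sets.

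Genes that make or use the methyl groups on which GAMT draws had a median of 0.20. Of the 12 measured, 10 were higher in mean, against 55.9% of all probe sets. CHDH, a choline dehydrogenase, differed by 0.26 (SE 0.14), MAT1A, which makes S-adenosylmethionine, by 0.14 (SE 0.14) and PEMT, a user of it, by 0.40 (SE 0.41). BHMT, which remethylates homocysteine with betaine, was at 71.4, 967.3 and 493.3 in Sham and at 2655.2, 92.3 and 3124.6 in CPB. Sham 1 and CPB 2, poor in LRP2, were far below the others. The SE of its log2 difference was 1.63. At equal LRP2 the difference was 0.89 (SE 0.23), which met the threshold there, as did 0.692% of all probe sets. At an equal mean of the proximal tubule markers it was 0.38 (SE 0.41) and did not. Without a covariate BHMT ran from 0.41 without Sham 1 to 3.15 without CPB 2, where it met the threshold, as did 693 of all probe sets. PEMT ran from 0.16 to 0.78 in the same fits, CHDH from 0.15 without CPB 3 to 0.33 without CPB 2, and MAT1A from 0.082 without Sham 1 to 0.25 without Sham 2.

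Of 12 listed carriers of creatine or creatinine and relatives of SLC6A8, 2 were measured. SLC22A2, which takes up creatinine and other organic cations at the basal side of the proximal tubule, ranged from 373 in CPB 2 to 4875.7 in CPB 1 and differed by 0.81 (SE 1.18). SLC22A6, the organic anion carrier of the same cells, differed by 0.53 (SE 0.81). SLC22A2 ran from 0.11 without CPB 1 to 1.96 without CPB 2, and SLC22A6 from -0.08 without Sham 1 to 1.21 without Sham 2. In both, the 3 highest arrays were those of LRP2.

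The 10 partners of mitochondrial creatine kinase measured were mainly carriers and channels that pass ATP, ADP and phosphate through the mitochondrial membranes. SLC25A4 was among several of them that did not follow LRP2 over the arrays. It encodes the ADP/ATP carrier isoform of heart and muscle. Its intensity was 1022, 1044.6 and 525.3 in Sham and 1321.9, 1313.7 and 1268.8 in CPB. Every CPB array lay above every Sham array, as in 3.38% of all probe sets, and CPB 2 was level with the other CPB arrays. The difference was 0.66 (SE 0.28), short of the study's threshold, and 0.67 (SE 0.29) at equal LRP2. It met the threshold without Sham 1 (0.81) and without Sham 2 (0.83), fits in which 58 and 701 of all probe sets met it. Without Sham 3, which had also been the lowest array for CKB and CKMT2, the difference was 0.33. Other partners differed less or with wider error: PPIF, cyclophilin D, by 0.73 (SE 0.66), VDAC1 by 0.18 (SE 0.18) and VDAC3 by 0.11 (SE 0.14). PPIF ran from 0.29 without CPB 3 to 1.30 without CPB 2, VDAC1 from 0.031 to 0.34 in the same fits, and VDAC3 was at -0.00036 without Sham 3. The list had a median of 0.087.

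Adenylate kinases and other enzymes that pass phosphate between nucleotides had a median of 0.09, with 6 of 10 higher in mean. GUK1, guanylate kinase, was at 95.5, 104.1 and 89.5 in Sham and at 105.8, 118.6 and 114.5 in CPB, with no overlap and a difference of 0.23 (SE 0.12). AK8 differed by 0.23 (SE 0.15), NME6 by 0.21 (SE 0.15) and NME2 by 0.15 (SE 0.13). NME6 was at 0.10 without Sham 3. ATP-driven pumps and subunits of AMPK, the kinase that senses a fall in ATP, had a median of 0.0095. The catalytic subunit PRKAA2 was at 113.7, 109.5 and 100.3 in Sham and at 129.1, 141 and 121.6 in CPB, a difference of 0.27 (SE 0.12) with no overlap. The regulatory subunit PRKAG1 was at 422.9, 391.5 and 374.7 in Sham and at 314.3, 356.5 and 357.6 in CPB, a difference of -0.21 (SE 0.12), also with no overlap, and the CPB arrays lay wholly below the Sham arrays in 1.89% of all probe sets. PRKAG2 differed by -0.21 (SE 0.13). ATP1B3, a beta subunit of the sodium pump, differed by -0.64 (SE 0.47). It ran from -1.13 without Sham 2, where it met the threshold, as did 701 of all probe sets, to -0.33 without Sham 3.

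**Figure D5:**
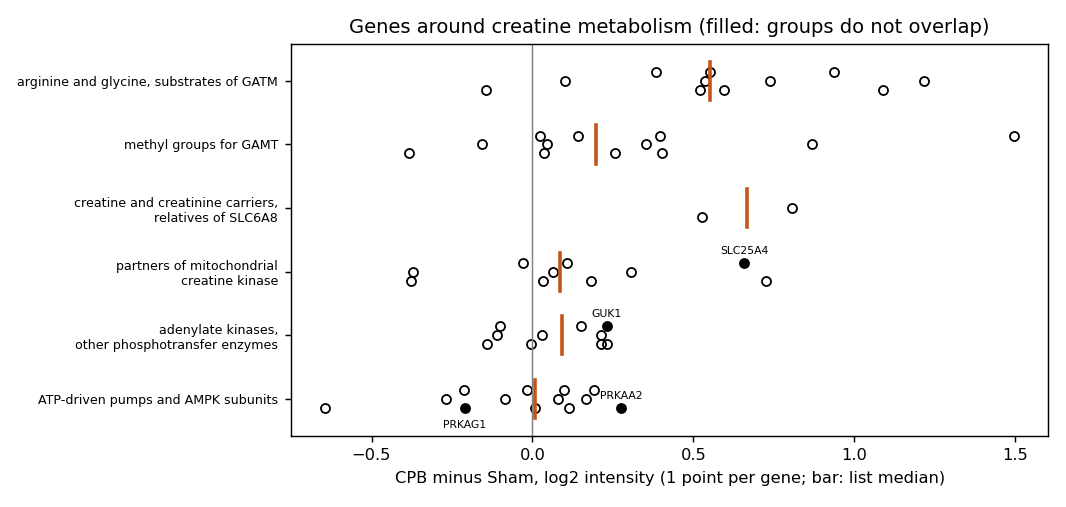
Log2 difference, CPB minus Sham, of the 58 measured genes in 6 lists, with 1 point per gene in each list and a bar at the median of the list. Filled points are the 4 genes whose groups do not overlap, SLC25A4, GUK1, PRKAA2 and PRKAG1, and the list of arginine and glycine genes has a median of 0.55.

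Over all probe sets with 1 gene symbol, the 3 genes most like each creatine gene were found by Pearson's r of log2 intensity over the 6 arrays. For CKMT2 they were TKFC (r = 0.994), ABRA (0.990) and ENDOG (0.989), of which ENDOG, a mitochondrial nuclease, was at 143.5, 191.9 and 123.8 in Sham and at 277.2, 165 and 279.8 in CPB. SLC6A8 was most like SUCLG1 (0.997), a subunit of a citric acid cycle enzyme, KCNA2 (0.997) and BPIFA2 (0.994). GAMT was most like LOC100627879 (0.999), SRSF6 (0.997) and XIRP2 (0.996). CKB was most like MRPL2 (0.986), DNAJC11 (0.985) and TIMM22 (0.983), all of which encode mitochondrial proteins. CKM was most like CETN3 (0.997), AFF3 (0.994) and KNG1 (0.991), and CKMT1A was most like NCAPH2 (0.983), MDGA1 (0.982) and ZNF648 (0.978). Each r rests on 6 arrays and was the highest of many, so it is a description only.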

How the data were processed

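Renal medulla RNA from 3 Sham and 3 CPB pigs was hybridised to Affymetrix porcine arrays, 1 for each pig. Scans were read by the authors in GCOS and summarised by RMA (background correction, quantile normalisation and median polish) in ArrayStar. RMA also stands in the submitters' processing notes. The deposited values are RMA intensity values on the linear scale for 24123 probe sets, the scale being read from their size and range, and log2 was taken first. How far each probe stood above background is unknown. The 124 control probe sets were left out. Symbols come from the array annotation, in which 10069 of the 23999 remaining probe sets have 1 symbol, 198 several and 13732 none. CPB and Sham were compared over all 23999 by lmFit and eBayes of limma 3.58.1, run in R 4.3.3, with Benjamini-Hochberg adjustment, and the study's threshold was applied to the same fit. For lists of genes the probe set with the highest mean was taken.

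The members and lists were chosen with earlier results of these data known. Named are all member and LRP2 probe sets, the 4 genes of each pathway list with the smallest p, the 3 brightest genes of a marker list where needed, and the 3 genes most like each member. ASS1 and the striated muscle gene ACTC1 were named after their values were seen. Marker lists not described above had median log2 differences of -0.055 (distal tubule and collecting duct, 6 genes), 0.0059 (myeloid, 9 genes) and 0.14 (erythroid, 4 genes). Alternatives were other tests, priors and array weights, a second quantile normalisation, median centring, a filter on dim probe sets, and control probe sets kept. Further alternatives were a pseudocount of 16, fold minimums of 1.5 and 2, the replicate number as a block, covariates for proximal tubule transcripts, and arrays left out. The fit was tested on simulated data. The precision rests on 3 animals per group.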

Additional observations from a re-analysis of the deposited data

How the results depend on the processing

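The count of probe sets at the study's threshold was 73 (21 higher, 52 lower) in the main limma fit. It was 30 (10 higher, 20 lower) and 26 (10 higher, 16 lower) with the t-test of the methods on log2 and linear values respectively, 21 with a fold minimum of 2, 48 with a pseudocount of 16, 166 (85 higher, 81 lower) with LRP2 as a covariate, 2116 with array weights, whose estimation stopped before it converged, and 3070 without Sham 2 and CPB 2 together. With each array left out it lay between 52 and 701, at 701 without Sham 2 and 693 without CPB 2. Of the 6 creatine probe sets 1 met the threshold. This was 0 with either form of the methods' t-test and with a fold minimum of 2, 2 with array weights (CKMT2 and SLC6A8) and 3 without Sham 2 and CPB 2 together. It lay between 0 and 2 with each array left out. Without CPB 2 the pair was CKMT2 and GAMT, and without Sham 2 it was CKMT2 and SLC6A8. The cause of these shifts was not tested. The median difference of the 6 genes lay between 0.27 and 0.70 over the alternatives without a covariate, and at equal LRP2 between 0.23 and 0.62 with each array left out. Of the differences of single genes 26 moved by more than the spread between animals, all of them without Sham 2 and CPB 2 together.

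Deviations of same-numbered arrays from their group means correlated at -0.39, -0.68 and -0.02 for replicates 1, 2 and 3. Sham 2 was rich and CPB 2 poor in proximal tubule transcripts, so these values cannot show whether same-numbered animals were paired. The main fit used no pairing. With the replicate block 0 of the 6 creatine probe sets and 76 of all probe sets met the threshold. Signal over background is unknown, so how far background limits CKMT2, the dimmest of the 6 probe sets, was not tested.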
